A study of Mus musculus with 9 samples.

Results

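The Hox genes examined here are 38 genes of the Hoxa, Hoxb, Hoxc and Hoxd clusters, chosen by gene symbol and not by any measured value, among 21887 protein-coding genes of the annotation. They comprise 10 Hoxa, 10 Hoxb, 9 Hoxc and 9 Hoxd genes, and all 38 symbols were found. Earlier results of these data were known when the Hox genes were chosen. The annotation lists 39 Hox genes in the 4 clusters, and the other one is not analysed here. A peak belonged to a Hox gene when its summit lay in the gene body or, outside all gene bodies, when that gene was the nearest one within 100 kb.

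Hox genes encode homeodomain transcription factors that give cells their position along the head-to-tail axis. In each cluster the genes lie in the order in which they are switched on, from low-numbered genes used in the hindbrain and neck to high-numbered genes used in the tail, distal limb and genital region, and genes with the same number in different clusters are paralogues. In embryonic stem cells the clusters are known to be held silent by Polycomb complexes and to be opened by retinoic acid, Cdx factors and Trithorax-type methyltransferases during differentiation. TWIST1 is a basic helix-loop-helix factor of cranial mesenchyme and neural crest that binds E-boxes, the sequence CANNTG.

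The study mapped TWIST1 by ChIP-seq, which sequences DNA fragments recovered with an antibody, in embryoid bodies, suspended aggregates grown from mouse embryonic stem cells. The OE group (4 libraries, OE 1 to OE 4) carried a deletion of Twist1 (Twist1-/-) together with a doxycycline-inducible Flag-Twist1 in the A2loxcre line. The KO group (2 libraries, KO 2 and KO 3) was Twist1-/- without the inducible cassette, and 1 KO input library held chromatin without antibody selection. The strain is labelled C57BL/6, all cells were differentiated for 3 days, and doxycycline was given for the last 16 h in both genotypes. The TWIST1 in OE cells was thus transgenic, and the controls lacked Twist1 instead of having its normal level. The experiment was done in 4 biological replicates according to the design text, which describes a neurogenic differentiation, while the sample labels say embryoid bodies. How many clones were used is not given, peaks hold no expression values with which the cell type could be checked, and in bulk chromatin more bound cells and stronger binding per cell cannot be told apart. The 2 OE inputs are not analysed here.

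The libraries differed in depth, and OE 1 and OE 4 stood apart from OE 2 and OE 3. The lists held 22308, 106750, 87385 and 14078 peaks on the main chromosomes in OE 1 to OE 4, and 94, 62 and 1642 in KO 2, KO 3 and the KO input. The commonest background pileup, the number of fragments expected at a position, was 1.00 and 1.20 in OE 1 and OE 4, against 5.38 and 5.29 in OE 2 and OE 3 and 4.73, 5.09 and 6.46 in KO 2, KO 3 and the input. Folds are the authors' enrichment of a summit over local background, and a fold from a library with low background rests on fewer fragments than the same fold from a library with high background. Some folds are therefore also given as a percentile, the rank among all peaks of the same library. Where only folds are printed, this limit applies to comparisons between libraries.

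Peaks at Hox genes were listed almost exclusively in the OE libraries. There were 26 in OE 1, 161 in OE 2, 124 in OE 3 and 21 in OE 4, against 1 in KO 2 and 0 in KO 3, and the KO input listed 4. All 4 OE libraries thus lay above both KO libraries. The mean was 83 ± 70.4 peaks (SD, n = 4) in OE and 0.5 ± 0.707 (SD, n = 2) in KO, and the mean of log2(peaks + 1) differed by 5.38. The exact permutation test, two-sided over 15 splits, gave p = 0.0667, the smallest value this design allows, so no p under 0.05 could be reached. With OE 2 and OE 3 alone, whose background is close to that of the KO libraries, the difference was 6.65. The exact permutation p over 6 splits was 0.333, again the smallest value possible.

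The whole lists differed in length in the same way, so the Hox peaks were also read as a share of each list. The shares were 0.117%, 0.151%, 0.142% and 0.149% in OE 1 to OE 4, a mean of 0.140% ± 0.0159 (SD, n = 4). The single KO 2 peak was 1.06% of its list (95% exact Clopper-Pearson interval 0.0269 to 5.79%), 0 of 62 peaks in KO 3 allows a share of up to 4.84% (a limit of 3 counts, not the exact interval), and the input share was 0.244% (0.0664 to 0.623%). These intervals cover counting error only. On the share the groups did not separate: the exact permutation p was 0.6, the mean share was higher in KO, and the mean log2 share was 0.52 higher in OE. With KO lists of 94 and 62 peaks the interval of the KO 2 share includes the share of each OE library.

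Nearly every Hox gene had a peak in the deeper OE libraries, as did most genes. At least 1 peak was listed at 21 of the 38 Hox genes in OE 1 (55.3%, against 47.3% of all genes), 36 in OE 2 (94.7% against 80.6%), 38 in OE 3 (100% against 77.5%) and 19 in OE 4 (50% against 37.4%). In the controls it was 1 gene in KO 2 (2.63% against 0.21%), 0 in KO 3 (against 0.0959%) and 5 in the input (13.2% against 5.29%), where 1 peak lay in 2 overlapping gene bodies. The Hox share was above that of all genes in each OE library, in KO 2 and in the input, and no test was made of this.

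With a stricter definition the share at Hox genes was near that of all genes. A reproducible region was a stretch of merged OE peaks supported by all 4 OE libraries and overlapped by no peak of a KO library or the input. Of 10375 such regions, 13 fell to 11 of the 38 Hox genes, which is 28.9% against 30.3% of all genes, a share near the background. The 11 genes are Hoxa3, Hoxb2, Hoxb3, Hoxb7, Hoxb9, Hoxc13, Hoxd1, Hoxd3, Hoxd8, Hoxd11 and Hoxd13, with 2 regions each at Hoxa3 and Hoxd1. Between OE 2 and OE 3 alone, 33 Hox genes (86.8%) had a region without a control peak, against 74.4% of all genes.

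**Figure D1:**
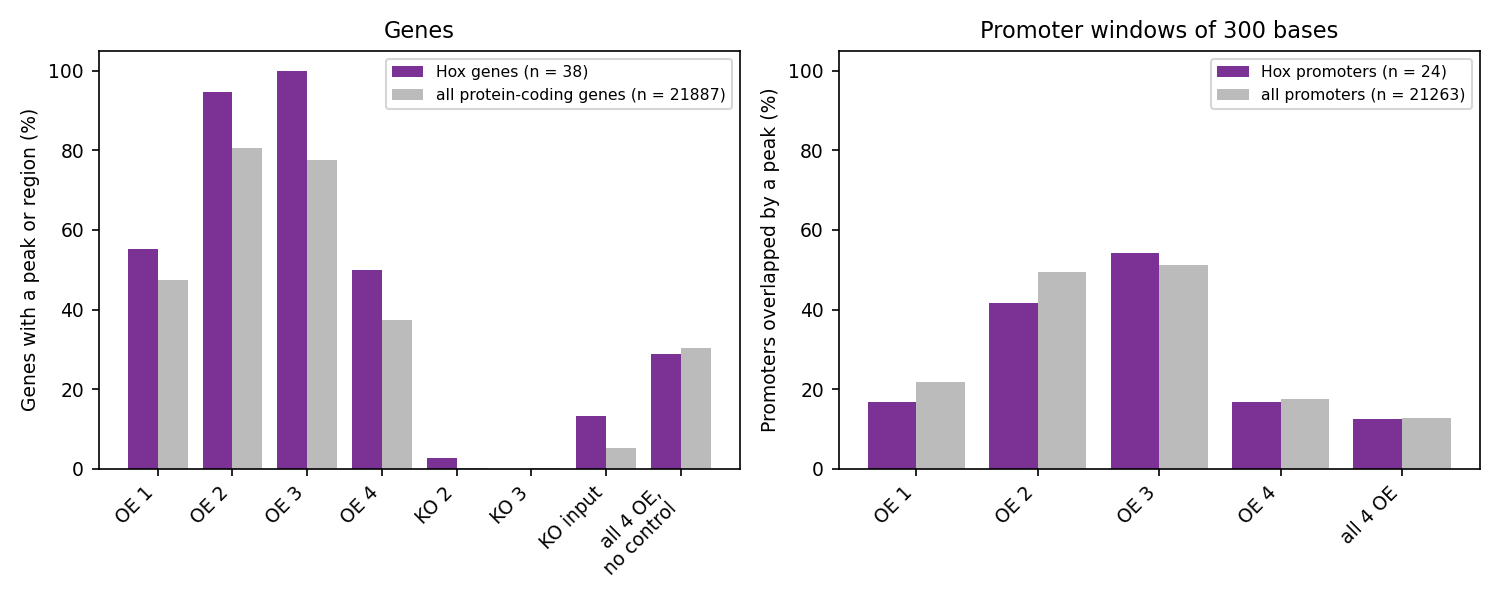
Share of Hox genes (purple) and of all protein-coding genes (grey) with at least 1 peak in each library or with a reproducible region (left), and share of promoter windows overlapped by a peak in each OE library or in all 4 (right), in percent. The purple bars stand above the grey ones for each OE library on the left, while for reproducible regions 28.9% stands beside 30.3% and for promoters in all 4 libraries 12.5% stands beside 12.7%.

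Hox clusters are dense in genes, and the peaks were dense there too. Inside the 4 spans from the first to the last member, 485 kb in all, there were 23, 137, 108 and 19 peaks in OE 1 to OE 4, or 4.74, 28.2, 22.3 and 3.92 per 100 kb, against 0.820, 3.92, 3.21 and 0.517 over the genome. Control peaks were denser there as well, with 0.825 per 100 kb against 0.0603 in the KO input (4 peaks) and 0.206 against 0.00345 in KO 2 (1 peak), while KO 3 had 0. Of the 13 reproducible regions 12 lay inside these spans, 2.47 per 100 kb against 0.381 over the genome. The spans also hold 7.83 genes per 100 kb against 0.804 over the genome. By the assignment rule the 38 genes, 0.174% of all genes, received 765 kb or 0.0401% of the length that falls to any gene, less length per gene than the average.

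The clusters differed from each other. Hoxd had a region at 5 of 9 genes and 5.16 regions per 100 kb, Hoxb at 4 of 10 genes and 2.30 per 100 kb, Hoxa at 1 of 10 genes and 2.03 per 100 kb, and Hoxc at 1 of 9 genes and 0.864 per 100 kb. In OE 2 and OE 3 the difference was smaller, with 26 to 32 and 20.7 to 24.8 peaks per 100 kb in the 4 clusters. By paralogue number, 5 of 11 genes of groups 1 to 4 had a region, 2 of 11 of groups 5 to 8 and 4 of 16 of groups 9 to 13. These counts were not tested. They also depend on the q-value limit. With −log10 q of at least 10, the Hox genes with a region were Hoxa3, Hoxb3, Hoxb9, Hoxc13 and Hoxd13.

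**Figure D2:**
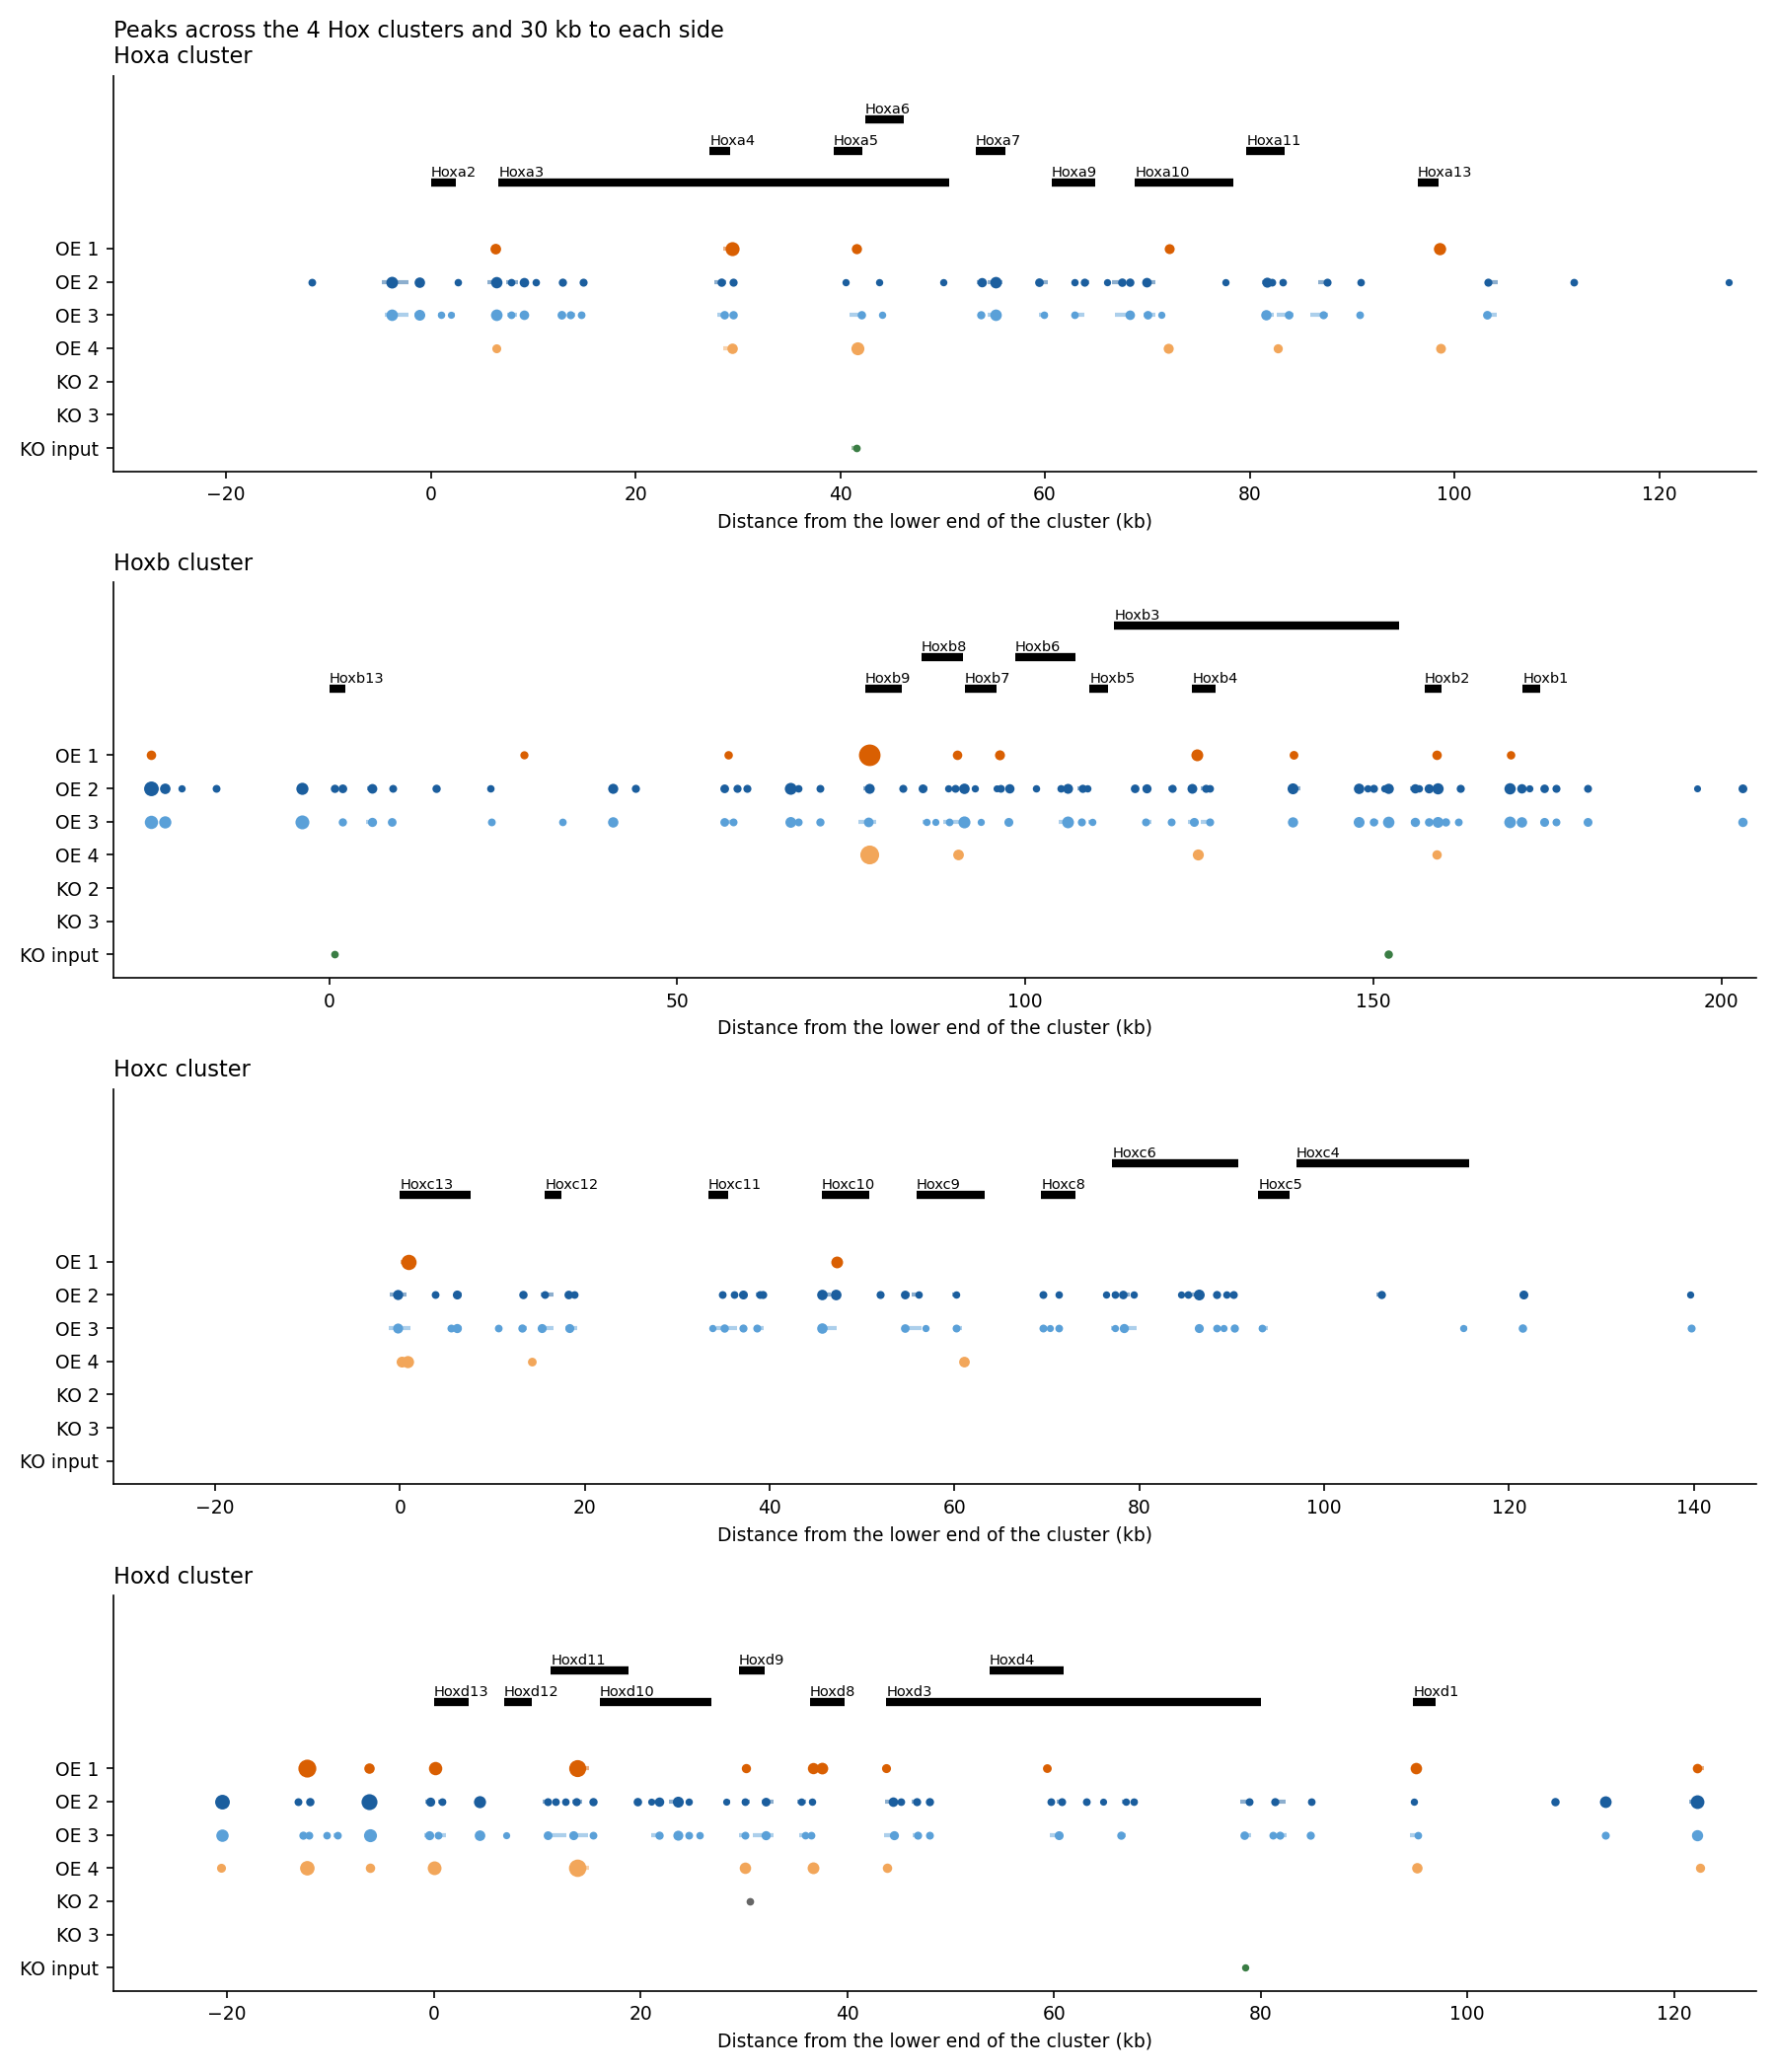
Peaks in the 4 clusters and 30 kb to each side, by distance in kb from the lower end of the lowest member. Black bars are gene bodies, each coloured row is 1 library, lines are peak widths and dots are summits with an area that grows with fold; the many small dots of OE 2 and OE 3 contrast with few large ones in OE 1 and OE 4, and KO 2 has 1 peak, at Hoxd9.

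The Hoxd cluster held the most regions. At the 5′ end of the cluster, Hoxd13, which patterns digits and the genital tubercle, had peaks of 16.5, 6.27, 6.20 and 17.7-fold in OE 1 to OE 4 in a region over its start (chr2:74667290-74669444, mm10). Hoxd11, which with its paralogues shapes the forearm and kidney, had 28.4, 4.39, 6.04 and 30.0-fold (chr2:74681419-74683277). In both of these regions OE 1 and OE 4 gave far higher folds than OE 2 and OE 3. The strongest OE 2 and OE 3 peaks at Hoxd13 lay outside this region, beyond the higher end of the gene. Their folds were still lower than those of OE 1 and OE 4. Their percentiles were 87.8% and 79.6%, against 74.8% and 79.5% for the strongest OE 1 and OE 4 peaks at Hoxd13. The pileups at Hoxd11 were 56, 27, 37 and 65 fragments, so OE 1 and OE 4 were also higher in fragments at the summit, although their background was lower.

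Promoter windows were compared with the peaks. The RefSeq promoter table (GRCm38.p6) held 24 promoters of 22 of the 38 members, each from 250 bases before to 50 after a start. A peak of all 4 OE libraries overlapped 3 of them (12.5%, against 12.7% of all 21263 promoters), those of Hoxd13, Hoxd3 and the downstream of the 2 listed starts of Hoxd11. By library the count was 4 in OE 1 (against 21.7% of all promoters), 10 in OE 2 (49.5%), 13 in OE 3 (51.3%) and 4 in OE 4 (17.5%). Their 250 upstream bases follow, 5′ to 3′, with the fourth from Hoxb4, whose promoter was overlapped only in OE 2 and OE 3. Capitals mark each E-box.
Hoxd13 promoter, chr2:74667975-74668224, plus strand: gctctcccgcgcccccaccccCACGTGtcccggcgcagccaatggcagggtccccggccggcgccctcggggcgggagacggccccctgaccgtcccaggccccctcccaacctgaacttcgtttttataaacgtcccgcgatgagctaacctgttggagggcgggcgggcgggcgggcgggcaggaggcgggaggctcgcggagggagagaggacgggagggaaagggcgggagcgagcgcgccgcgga
Hoxd11 promoter, chr2:74682073-74682322, plus strand: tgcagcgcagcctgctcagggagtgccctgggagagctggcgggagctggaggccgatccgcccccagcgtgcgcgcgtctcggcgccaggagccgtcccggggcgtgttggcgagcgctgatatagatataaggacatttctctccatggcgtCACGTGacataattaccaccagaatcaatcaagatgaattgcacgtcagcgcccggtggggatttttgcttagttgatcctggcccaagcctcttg
Hoxd3 promoter, chr2:74711743-74711992, plus strand: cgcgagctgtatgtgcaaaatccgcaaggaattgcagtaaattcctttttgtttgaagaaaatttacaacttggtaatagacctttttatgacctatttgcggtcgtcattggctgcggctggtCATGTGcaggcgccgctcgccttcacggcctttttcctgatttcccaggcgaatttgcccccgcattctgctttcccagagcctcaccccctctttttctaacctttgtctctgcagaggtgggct
Hoxb4 promoter, chr11:96318017-96318266, plus strand: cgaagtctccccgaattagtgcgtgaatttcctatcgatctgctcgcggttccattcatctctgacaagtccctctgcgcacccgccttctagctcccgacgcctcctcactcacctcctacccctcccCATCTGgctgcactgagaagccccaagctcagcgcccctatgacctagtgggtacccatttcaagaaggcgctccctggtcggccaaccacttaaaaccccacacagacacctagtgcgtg
Counted from the start, the first base of the E-box CACGTG is at -229 in Hoxd13, that of CACGTG at -96 in Hoxd11 and that of CATGTG at -126 in Hoxd3. None of the 4 OE summits at these 3 genes fell within the printed bases, and the distances from the E-box in OE 1 to OE 4 were 356, 118, 224 and 304 bp at Hoxd13, 165, 258, 476 and 175 bp at Hoxd11, and 149, 765, 841 and 198 bp at Hoxd3. The Hoxb4 window holds CATCTG.

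Motifs in the Hox promoters occurred at about the rate of all promoters for the general E-box, with CANNTG in 17 of 24 (70.8%) against 69.0%. The E-box form CATCTG was in 3 (12.5% against 14.6%), CAGCTG in 4 (16.7% against 15.6%), CACCTG in 0 (against 19.7%) and CATATG in 0 (against 3.19%). A pair of E-boxes 5 bases apart was in 0 (against 0.663%), and the homeodomain core TAATTA was in 2 (8.33% against 4.53%). Both strands were searched in all 300 bases, and the specific forms overlap the general CANNTG. The median GC content was 57.7% in the Hox promoters, 56.3% in all promoters and 69.7% in the 2702 promoters overlapped in all 4 OE libraries.

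The remaining Hoxd regions had lower folds than Hoxd13 and Hoxd11 in OE 1 and OE 4, but not always in OE 2 and OE 3. Hoxd8 had 10.98, 3.13, 3.66 and 12.3-fold in OE 1 to OE 4 (chr2:74704542-74705095), again with OE 1 and OE 4 higher. Hoxd3, which takes part in forming the first neck vertebrae, had 5.99, 7.05, 6.20 and 6.81-fold (chr2:74711765-74713105). This was the smallest spread of fold between libraries among the 13 regions (mean 6.51 ± 0.501, SD, n = 4). In percentiles and fragments the libraries differed at Hoxd3, with 18.8, 69.9, 62.1 and 25.6% and pileups of 11, 44, 38 and 14. Hoxd1 had a region in its body (chr2:74762687-74763627) with 11.5, 2.98, 3.50 and 9.08-fold. A further region 25307 bp beyond its higher end (chr2:74789672-74791079) gave 6.99, 17.6, 10.8 and 6.36-fold, with the opposite order of libraries. The body region of Hoxd1 ranked 10176 of 10375 by mean percentile, and that of Hoxd8 ranked 10000.

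In the Hoxb cluster, Hoxb9, a gene of the thoracic segments, had the strongest region of all Hox genes by mean percentile. It gave 47.4, 8.15, 7.31 and 35.4-fold in OE 1 to OE 4, with pileups of 94, 51, 45 and 77 fragments, at the lower end of the gene (chr11:96270365-96272892). Its mean percentile of 84.0% placed it 2569th of 10375 regions. Its folds in OE 1 and OE 4 were the highest at any Hox gene in those libraries. In OE 2 and OE 3 other Hox regions were higher, up to 17.6-fold beyond Hoxd1 in OE 2 and 12.7-fold at Hoxb7 in OE 3.

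A region at the start of Hoxb4, a gene known for its role in blood progenitors, gave 12.5, 7.68, 5.88 and 10.4-fold (chr11:96317648-96319235). It counts for Hoxb3 and not for Hoxb4, because its leading summit, from OE 2, lay 93 bp before the Hoxb4 start and the annotated body of Hoxb3 spans the whole of Hoxb4. Hoxb7 had 6.99, 9.09, 12.7 and 9.53-fold in a region 137 bp from its lower end (chr11:96283916-96285698). The OE 1 and OE 4 summits of that region lay inside the neighbouring Hoxb8, so Hoxb7 itself had a peak in 3 OE libraries only. Hoxb2, which acts in rhombomere identity, had 6.99, 10.8, 10.0 and 6.81-fold (chr11:96352624-96353855), with OE 2 and OE 3 higher.

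Only Hoxc13 in the Hoxc cluster and Hoxa3 in the Hoxa cluster had reproducible regions. Hoxc13, required for hair and nails, had 22.5, 8.31, 8.10 and 13.2-fold (chr15:102919959-102922297) and ranked 4327th, after Hoxb9. Hoxa3, needed for the thymus and parathyroid, had 9.48, 11.3, 11.8 and 5.90-fold at its lower end (chr6:52168001-52169281). Another region counted for Hoxa3 lay at the higher end of Hoxa4 (chr6:52190155-52192195) with 18.5, 4.86, 5.09 and 9.08-fold. The annotated Hoxa3 body holds all of Hoxa4, Hoxa5 and Hoxa6, and that of Hoxd3 holds Hoxd4, so peaks inside the inner genes count for the outer gene too. When a region was given to every gene body it overlapped, 14 Hox genes had one, with Hoxa4, Hoxb4 and Hoxb8 added.

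Compared with other reproducible regions, those at Hox genes ranked low. Their median mean percentile was 59.1% against 71.5% over all 10375 regions. By library, the median fold was 11.5, 7.68, 6.20 and 9.53 in OE 1 to OE 4, against 15.5, 16.1, 15.1 and 10.9 over all regions. The gap was widest in OE 2 and OE 3, where the median percentile was 73.5% and 62.1% against 91.1% and 89.9%. No Hox region remained when each list was limited to its strongest 14078 peaks, the length of the shortest OE list, while 15.8% of all genes still had a region under that limit.

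**Figure D3:**
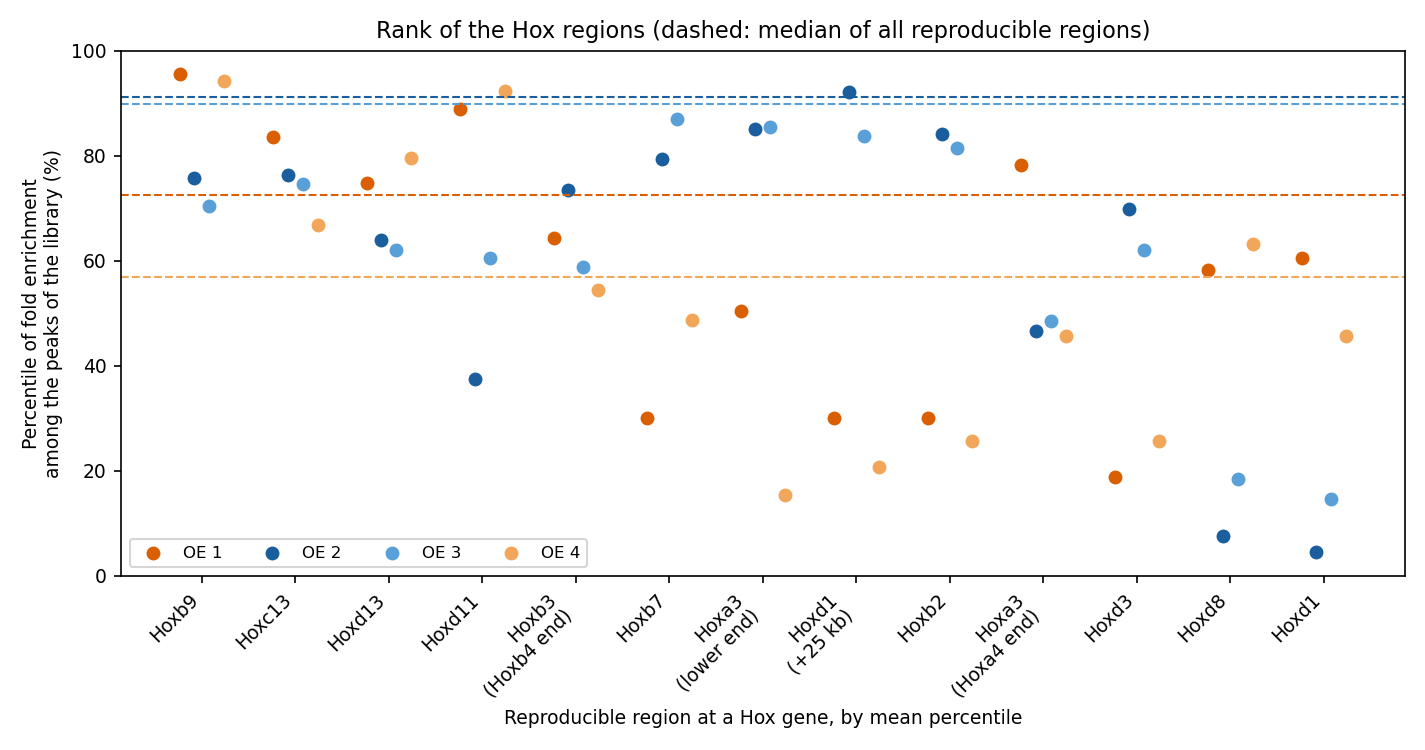
Percentile of fold in the library's own list for the 13 reproducible Hox regions, 1 dot per OE library, ordered by mean percentile, with dashed lines at the median of all 10375 regions in each library. In OE 2 only the region 25 kb from Hoxd1, and in OE 3 no region, lies above the dashed line of its colour, while Hoxb9, Hoxc13, Hoxd13 and Hoxd11 lie above it in OE 1 and OE 4.

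The strongest peaks of the 4 OE libraries did not share a summit position in many of the Hox regions. Where a library listed more than 1 peak in a region, only the summit of its strongest was used. The median distance between summits was 49 bp for OE 1 against OE 4 and 79 bp for OE 2 against OE 3, but 266, 311, 336 and 301 bp for the 4 pairs across these sets. Over all 10375 regions the same medians were 24 and 13 bp within the sets and 44, 44, 50 and 50 bp across them. Summits of OE 1 and OE 2 lay within 100 bp of each other in 5 of the 13 Hox regions (38.5%) against 64.4% of all regions, and those of OE 3 and OE 4 in 3 (23.1%) against 63.6%.

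Single regions show the offset. At Hoxd13, relative to the start, the summits of OE 1 and OE 4 lay at 130 and 78 bp. The strongest summits of OE 2 and OE 3 in the region lay at -344 and -450 bp. Both also listed a weaker peak there, with summits inside the gene at 0.787 and 0.371 kb (3.60 and 3.81-fold). At Hoxc13, relative to the lower end of the gene, the strongest OE 1 and OE 4 summits lay at 881 and 841 bp. Those of OE 2 and OE 3 lay outside the gene at -291 and -228 bp. A weaker OE 4 peak in this region had its summit at 0.157 kb. The Hoxb9 summits lay 524, 514, 435 and 535 bp inside the lower end, within 100 bp of each other. Those at the lower end of Hoxa3 spread over 78 bp. In the region at the higher end of Hoxa4, further, weaker peaks of OE 2 and OE 3 lay near those of OE 1 and OE 4. Their summits were at 29.537 and 29.563 kb from the lower end of the cluster, against 29.47 and 29.49 kb in OE 1 and OE 4. Background pileup moved with this split of the libraries, and its part in the summit positions was not tested.

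**Figure D4:**
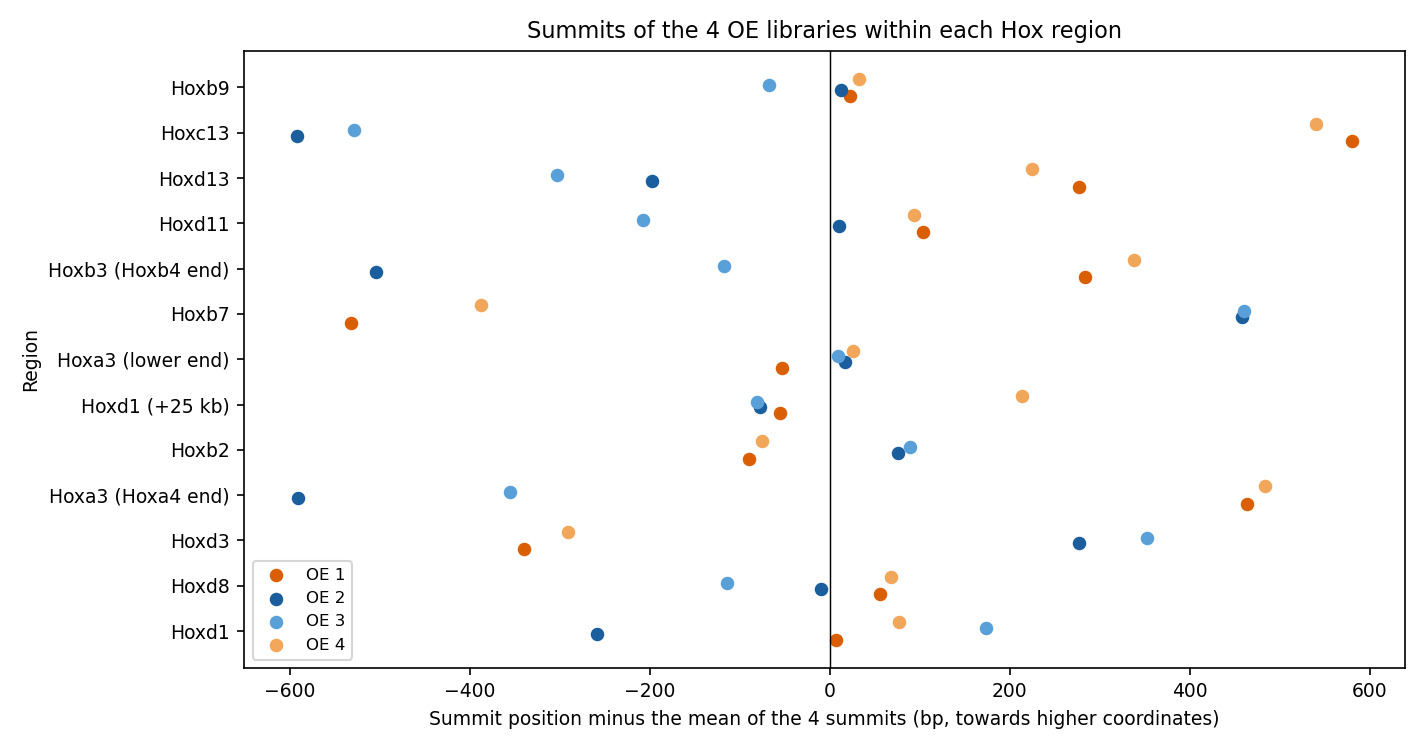
Summit of the strongest peak of each OE library in the 13 reproducible Hox regions, in bp from the mean of the 4 summits. The order of regions is that of the plot of percentiles. Orange dots (OE 1 and OE 4) and blue dots (OE 2 and OE 3) fall on opposite sides in Hoxc13, Hoxd13, Hoxb7, Hoxd3, Hoxb2 and others, and fall close together in Hoxb9.

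Hox peaks lay near gene ends more often than peaks in general in each OE library. The summit was 1 kb or less from a gene's start or end for 57.7%, 32.9%, 39.5% and 76.2% of the Hox peaks in OE 1 to OE 4, against 25.3%, 14.5%, 16.4% and 33.0% of all peaks. The mean over the OE libraries was 51.6% ± 19.5 (SD, n = 4). Gene ends are also closer together in the clusters, and no test was made of this. The KO libraries had too few Hox peaks for a comparison.

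The other 27 Hox genes had peaks in some OE libraries without a shared, control-free region. Of all 38 genes, 16 had a peak in all 4 OE libraries, 8 in 3, 12 in 2 and 2 in 1. The same split was not computed for all genes, of which 47.3%, 80.6%, 77.5% and 37.4% had a peak in OE 1 to OE 4. The 16 include 6 genes without a reproducible region: Hoxa5, Hoxa10, Hoxa13, Hoxb4, Hoxb8 and Hoxd9. Hoxa13, a gene of digits and hindgut, had 13.5, 4.39, 5.40 and 7.72-fold, and Hoxa10, a gene of the lumbar spine and uterus, had 7.99, 7.21, 7.15 and 8.17-fold. Their peaks in OE 1 and OE 4 did not overlap those of OE 2 and OE 3 in 1 region.

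Hoxd9 lost its region to a control peak. Its region (chr2:74697759-74698782) gave 6.49, 3.60, 3.97 and 11.4-fold in OE 1 to OE 4. A KO 2 peak of 3.50-fold, 22 fragments over a background of 5.57, overlapped its edge by 11 bp, through the OE 2 peak alone. The KO 2 summit lay 398 to 482 bp from the OE summits. Without KO 2, 12 Hox genes had a region, with Hoxd9 added.

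The KO input peaks at Hox genes lay at Hoxb3 (4.83-fold), Hoxb13 (3.49-fold), Hoxd3 (2.95-fold) and in the overlapping bodies of Hoxa3 and Hoxa5 (3.49-fold). The last one coincided with peaks of 8.48, 4.93 and 15.4-fold in OE 1, OE 3 and OE 4. That at Hoxb3 coincided with peaks of 8.62 and 11.4-fold in OE 2 and OE 3. None of these 4 positions counts among the reproducible regions.

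The genes with a peak in 3 OE libraries were Hoxa11, Hoxb1, Hoxb7, Hoxb13, Hoxc9, Hoxc10, Hoxc12 and Hoxd4. Hoxb13, the most posterior Hoxb gene, reached 13.2 and 18.1-fold in OE 2 and OE 3 and 4.49-fold in OE 1, with none in OE 4. Hoxb1, which specifies rhombomere 4, reached 11.1 and 11.9-fold in OE 2 and OE 3 and 4.99-fold in OE 1. Hoxc10 had 12.2, 9.40 and 9.06-fold in OE 1 to OE 3. The strength of the OE 2 and OE 3 peaks at Hoxb13 and Hoxb1 thus exceeded that of most reproducible Hox regions in those libraries.

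The 12 genes with a peak in 2 libraries had them in OE 2 and OE 3. They were Hoxa2, Hoxa4, Hoxa6, Hoxa7, Hoxa9, Hoxb5, Hoxb6, Hoxc4, Hoxc6, Hoxc8, Hoxc11 and Hoxd10. The strongest were Hoxa7 (11.6 and 11.6-fold), Hoxb6 (7.99 and 12.2-fold), Hoxd10 (10.2 and 8.10-fold) and Hoxa2, a gene of the hindbrain and pharyngeal arches (9.09 and 10.0-fold). The weakest were Hoxa6 (2.98 and 3.02-fold) and Hoxb5 (3.13 and 3.02-fold). Hoxc5 (3.66-fold) and Hoxd12 (2.70-fold) had 1 peak each, in OE 3.

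Outside the clusters, 2 regions had a higher mean percentile than any Hox region, 99.0% and 95.3% against 84.0% at Hoxb9. A region 216 kb beyond the Hoxd13 side of the Hoxd cluster, 63009 bp from Lnpk (chr2:74449437-74452789), gave 73.4, 377, 312 and 66.7-fold in OE 1 to OE 4. A region 396 kb from the Hoxa2 side of the Hoxa cluster, nearest to Skap2 (chr6:51764954-51767256), gave 31.4, 107, 151 and 29.1-fold. Both had higher folds in all 4 libraries than the Hox regions had, except that Hoxb9 in OE 1 and OE 4 and Hoxd11 in OE 4 exceeded the Skap2 region. Next to the clusters, the even-skipped gene Evx2 had 2 regions, of 31.9, 4.86, 4.45 and 19.98-fold and of 8.98, 24.6, 15.4 and 6.81-fold, and Evx1 had 1, of 8.48, 4.86, 4.77 and 8.17-fold. Among the further neighbours, Skap1 had 1 region of 55.9, 6.27, 5.09 and 30.0-fold, Smug1 and Snx10 had 1 each, Gm50595 had 2, and Skap2 had 3 with the one above. Mtx2, Hibadh, Ttll6, Calcoco2, Calcoco1, Cbx5, Atp5g2 and Snx11 had none. These distances name the nearest gene and say nothing of which gene a region serves.

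Regions were also counted at genes known to act on or with the Hox clusters and at related homeobox genes. Of 59 such genes in 6 lists, 37 (62.7%) had a reproducible region, against 28.9% of the Hox genes and 30.3% of all genes. With regions in gene bodies only, 28 of the 59 had one, as did 21.3% of all genes. Gene length and neighbouring space were not matched in this count, and no test was made. The lists were chosen with earlier results of these data known.

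The Polycomb repressors stood at 12 of 16, led by Jarid2, which helps to recruit the methyltransferase complex (46.0, 27.6, 29.1 and 23.9-fold), and Cbx7, a reader of its mark (58.4, 10.97, 14.9 and 25.9-fold). The upstream transcription factors stood at 6 of 9, led by Egr2, an activator of Hox genes in the hindbrain (44.5, 29.3, 30.2 and 36.6-fold). The leading regions of Jarid2 and Egr2 lay outside these genes, 80423 and 90881 bp away. The Hox DNA-binding cofactors stood at 5 of 9, led by Pknox2 (102, 394, 350 and 90.8-fold) and Pbx2 (13.5, 41.5, 29.4 and 8.63-fold), while Meis1, Meis2, Meis3 and Pbx4 had none.

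The retinoic acid genes stood at 4 of 8, led by the receptors Rara (37.4, 135, 145 and 45.9-fold) and Rarg (30.9, 15.8, 13.5 and 17.3-fold). The Trithorax, MLL and boundary factors stood at 5 of 9, led by the methyltransferase Kmt2a (52.4, 14.7, 17.8 and 29.5-fold) and the insulator protein Ctcf (53.4, 11.4, 12.2 and 33.1-fold). The even-skipped and ParaHox-type homeobox genes stood at 5 of 8, led by Mnx1 (40.9, 20.5, 23.5 and 28.6-fold) and Gsx1 (9.48, 33.4, 20.3 and 9.08-fold). These regions of Mnx1 and Gsx1 lay 6629 and 526 bp outside the genes. Of the 59 genes only Men1 had no peak in any OE library.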

How the data were processed

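Peak lists of 7 TWIST1 ChIP-seq or input libraries were analysed. The submitters' processing notes list MACS2, BWA, Trimmomatic and Picard, and the builds mm10 and GRCm38.p5. Versions, settings and the caller's control, which can change which peaks are listed, are not stated there. Peaks were called per library. The deposited fold is a linear ratio over local background, and each peak has a −log10 p-value and a −log10 q-value from the authors' caller. The deposited score served only to check the layout. Read totals are not given. Pileups were recovered from the deposited fold and p-value for at least 89.9% of peaks. Analysis used scipy 1.17.1 and numpy 2.4.6 under Python 3.11.15, with matplotlib 3.10.9 for figures. OE peaks sharing 1 bp were merged on the 21 main chromosomes, and the region took the gene of its highest-percentile summit. Genes, promoters and miRNAs came from RefSeq tables of GRCm38.p6, which shares its main-chromosome coordinates with mm10. Exons and introns were not used here. Peak counts at Hox genes were compared on log2(peaks + 1), made here from the deposited lists, by an exact permutation test, which measures only the spread between these libraries. The Hox genes, gene lists and tests were chosen with earlier results of these data known. The naming rule takes all Hox members, the 2 leading genes of each regulator list by mean percentile, genes without an OE peak and the neighbours by position. The result of 1 gene that this rule names is not reported here. Alternatives changed the q-value limit, overlap, number of libraries, list length, distance to a gene, pseudocount and libraries left out. The merging and the assignment to genes were tested on simulated data.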

Additional observations from a re-analysis of the deposited data

Results flagged for a closer look

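At Hoxd9 the strongest peak of OE 4, 11.4-fold, stood apart from those of OE 1 to OE 3, which were 6.49, 5.49 and 6.36-fold. The gap to the nearest of them was just above the share of the range at which 1 of 4 values is picked out. It was 1 of 25 sets of 4 values examined, and chance alone would pick out about 1 in 20. OE 4 has the shortest OE list and a low background pileup of 1.20, and the part of this in the value was not tested. The 4 values are not from the same place. The OE 1 and OE 4 peaks lay inside Hoxd9, and the strongest OE 2 and OE 3 peaks just beyond its higher end. In the region that held the OE 4 peak, OE 2 and OE 3 gave 3.60 and 3.97-fold.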

How the results depend on the processing

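The counts of Hox genes with a region, of regions at Hox genes and of regions inside the clusters (11, 13 and 12) moved with strictness. With a stricter overlap between a library's peak and the strongest peak of the region, applied to control peaks too, they were 9, 10 and 10. Hoxb3, Hoxd1 and Hoxd13 then had no region and Hoxd9 had one, while 27.6% of all genes had a region. The counts were 5, 5 and 5 with −log10 q of at least 10, 32, 101 and 85 with at least 2 of 4 OE libraries, and 0, 0 and 0 with equal list lengths. With OE 2 and OE 3 only, an alternative chosen after seeing the data, they were 33, 98 and 82. The background share of all genes moved too, to 21.7% at the stricter q-value, 15.8% with equal list lengths and 74.4% with OE 2 and OE 3. The regulators with a region (37) became 57, 19 and 57 under the last 3 of these settings. Leaving out 1 library gave 9 to 13 genes, 11 to 16 regions, 10 to 15 regions inside the clusters and 37 to 44 regulators. In these settings 30.3 to 40.9% of all genes had a region. With OE 1 and OE 4 only, also added later, 15 Hox genes had a region, as did 33.4% of all genes. The near-end share fell to 26.7% within 500 bp and ranged from 43.4 to 57.8% when 1 OE library was left out. The OE against KO difference in log2(peaks + 1) ranged from 4.88 to 5.88 when 1 library was left out. With a replicate block on numbers 2 and 3, which only share a number, it was 6.65. The other alternatives on peak counts kept its direction. As log2(share + 0.01) it was 0.52, while the mean share without log2 was higher in KO. None of these alternatives gave a p under 0.05, and with so few libraries none could. The KO lists hold 94 and 62 peaks, which limits the precision of their shares, and read totals are not given.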

Other observations

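Most merged OE regions came from 1 or 2 libraries, at Hox genes as over the genome. Of 170 such regions, 65 (38.2%, against 37.2% of all merged OE regions) had peaks of 1 library, 85 (50%, against 46.5%) of 2, 6 (3.53%, against 7.07%) of 3 and 14 (8.24%, against 9.19%) of all 4. The pair OE 2 and OE 3 made up 80 of the 85, and OE 1 with OE 4 made up 2. The same shares of pairs were not computed over all merged regions.

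The Hox clusters also hold miRNA genes, small RNAs of the miR-10 and miR-196 families that are known to target Hox transcripts. None of those in the RefSeq table was overlapped by a reproducible region. The Mir10a hairpin lay 374 bp from the region at the start of Hoxb4. Mir196b, next to Hoxa10, was overlapped by peaks of 5.02 and 7.15-fold in OE 2 and OE 3, and the mature sequences of Mir615, within Hoxc5, by a peak of 3.66-fold in OE 3.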
